A study of Mus musculus with 12 samples.

Results

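Common gamma chain cytokine receptors were examined in a mouse coculture of group 2 innate lymphoid cells (ILC2s) and eosinophils, together with the cytokine IL-2. The set was chosen by gene name and held 10 of the 49315 genes in the table: Il2, the receptor chains Il2ra, Il2rb, Il2rg, Il7r, Il9r, Il15ra, Il21r and Il4ra, and Il13ra1. Il13ra1 pairs with the IL-4 receptor alpha chain in place of the common chain, so that gene is a partner of the family and not a gamma chain receptor itself. RNA was sequenced from 12 libraries in 4 groups of 3, all from C57BL/6 mice, to compare each cell type with and without the other.

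The groups were ILC2s with eosinophils, ILC2s alone, eosinophils with ILC2s and eosinophils alone. The ILC2s had been sorted from lung, grown with 4 cytokines (IL-7, IL-2, IL-33 and IL-25) and then held for 48 h in IL-7 and IL-2. Both groups of ILC2s had therefore been exposed to 2 ligands of this receptor family before the experiment. The eosinophils came from peripheral blood as the cells left after B220 and CD90 bead columns, and both eosinophil groups had been held for 24 h with IL-33. All cells were washed and cultured for a final 24 h in medium with no added cytokine, and the cell types of a coculture were then separated by flow cytometry. The labels do not say whether cells cultured alone went through the sorter too, so sorting and coculture cannot be told apart. The labels do not give cell numbers per culture or say that replicates were separate animals or cultures, so p-values measure no more than how far these samples vary, which may be technical.

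ILC2s are lymphocytes of tissues that lack antigen receptors and make type 2 cytokines such as IL-5 and IL-13, and IL-2, IL-7 and IL-9 are known to support their survival and growth. The receptors for IL-2, IL-4, IL-7, IL-9, IL-15 and IL-21 all use the common gamma chain, encoded by Il2rg, which carries the kinase JAK3. Each receptor adds chains of its own: the IL-2 receptor adds an alpha chain (Il2ra, CD25) that raises affinity and a beta chain (Il2rb, CD122) that it shares with the IL-15 receptor. The IL-7 receptor alpha chain (Il7r, CD127) is shared with the receptor for the epithelial alarmin TSLP. Ligand binding activates JAK1 and JAK3, which phosphorylate STAT proteins, mainly STAT5 for IL-2, IL-7, IL-9 and IL-15, STAT6 for IL-4 and STAT3 for IL-21.

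Levels are given as CPM, counts of a gene relative to its library's total after TMM scaling over all 12 libraries, and a level compared between genes is given per kb of annotated exon. The libraries held between 16769929 and 22928961 counts each, so that 3 counts were worth 0.131 to 0.179 CPM. The ILC2 marker list of 14 genes summed to 3488 to 3687 CPM by library total in ILC2s with eosinophils and to 5056 to 5145 CPM in ILC2s alone, against at most 77.6 CPM in eosinophils, most of it Ets1. The eosinophil list of 14 genes summed to 7812 to 7958 CPM in eosinophils with ILC2s and to 6866 to 6982 CPM in eosinophils alone, against at most 3.91 CPM in ILC2s. Both labels thus held against their markers. In bulk samples, fewer cells of a type and less RNA per cell cannot be told apart.

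On the mm10 build Il2 is at chr3:37120523-37125959 on the minus strand, Il2ra at chr2:11642807-11693193 on the plus strand and Il7r at chr15:9505788-9530176 on the minus strand. Il2ra and Il15ra are neighbours on the plus strand of chromosome 2 with 12.1 kb between them, and Il4ra and Il21r are neighbours on the plus strand of chromosome 7 with 24.0 kb between them. Il2rb is also on chromosome 15, Il9r is on chromosome 11, and Il2rg and Il13ra1 are on chromosome X. Exons of Il2rg overlap those of Gm20489 on the same strand, and exons of Il4ra overlap the antisense gene Gm44876. Those genes held 6 and 10 counts over all libraries, and the handling of shared reads is not given in the sources used here.

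The promoters of Il2ra, Il7r and Il2 are shown because Il2ra and Il7r changed places as the leading receptor of ILC2s and Il2 is the ligand. Each is 300 bases from RefSeq on GRCm38.p6, from 250 bases before to 50 after the annotated start, written 5′ to 3′ on the strand of the gene. Il2ra lies at chr2:11642542-11642841 on the plus strand, Il7r at chr15:9529827-9530126 on the minus strand and Il2 at chr3:37125905-37126204 on the minus strand. Capitals mark matches to GGAAA on either strand, the core letters bound by NFAT and ETS factors, and to TTCNNNGAA, the STAT5 consensus.
Il2ra: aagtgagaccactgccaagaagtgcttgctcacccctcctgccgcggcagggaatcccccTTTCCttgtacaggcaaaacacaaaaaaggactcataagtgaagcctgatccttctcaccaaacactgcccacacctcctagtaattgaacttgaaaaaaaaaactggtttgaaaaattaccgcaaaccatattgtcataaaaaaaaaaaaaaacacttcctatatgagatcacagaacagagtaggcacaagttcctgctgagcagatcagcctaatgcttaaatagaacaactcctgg
Il7r: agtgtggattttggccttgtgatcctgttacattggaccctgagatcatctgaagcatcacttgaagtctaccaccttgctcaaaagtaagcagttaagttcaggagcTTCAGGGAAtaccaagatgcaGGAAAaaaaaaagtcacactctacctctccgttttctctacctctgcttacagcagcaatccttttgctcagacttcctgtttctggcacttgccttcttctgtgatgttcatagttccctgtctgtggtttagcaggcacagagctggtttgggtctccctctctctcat
Il2: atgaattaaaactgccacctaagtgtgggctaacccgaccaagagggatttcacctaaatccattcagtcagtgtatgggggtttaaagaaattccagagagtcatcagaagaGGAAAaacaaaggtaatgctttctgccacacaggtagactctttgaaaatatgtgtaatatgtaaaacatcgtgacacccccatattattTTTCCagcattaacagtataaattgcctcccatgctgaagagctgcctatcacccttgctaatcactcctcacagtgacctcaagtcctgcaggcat

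The Il2ra window held 1 match to GGAAA, on the other strand with its first base 190 before the start, and none to TTCNNNGAA. In the Il7r window TTCNNNGAA was matched by TTCAGGGAA, 142 bases before the start, and GGAAA once at 121 before. The Il2 window held GGAAA at 137 before the start and, on the other strand, at 47 before. Over the 32851 promoters of the table, 61.3% held GGAAA and 8.3% held TTCNNNGAA on either strand, so the first is common and the second is not. None of these 3 windows matched GTAAACA, the forkhead motif bound by FOXO1 (3.6% of promoters), or TGANTCA, the AP-1 motif (7.8%). The table held 9 of the 10 genes. A match is a description of letters and not a bound site.

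In ILC2s the alpha and beta chains of the IL-2 receptor rose and the IL-7 receptor chain fell in coculture. Il2ra and Il2rb were 4.42-fold and 6.37-fold higher in ILC2s with eosinophils than in ILC2s alone, Il7r was 5.87-fold lower, and Il2rg did not pass the test. Of the 9 genes tested, 4 were higher and 4 lower at an edgeR adjusted p under 0.05, where 36.8% of all 14438 genes tested were higher and 35.6% lower. The share that changed in each direction was thus near the background, which is broad in this comparison. Changes of over 4-fold were rarer: 5.55% of all genes were higher by that much, as were Il2ra and Il2rb, and 1.81% were lower by that much, as were Il7r and Il2. By library totals Il2ra came to 1.99 on the log2 scale, just under 4-fold. The median log2 fold change was -0.05 over the 9 genes and 0.003 over all genes tested.

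Il2ra, the alpha chain of the high-affinity IL-2 receptor, had 1446, 1399 and 1339 CPM in ILC2s with eosinophils, against 304.5, 318 and 317.5 CPM in ILC2s alone. The lowest cocultured library stood far above the highest of the libraries alone. The log2 fold change came to 2.15 ± 0.04 (SE, edgeR adjusted p = 4.5e-27). Il2rb, the signalling beta chain of the IL-2 and IL-15 receptors, had 415, 400.4 and 376 CPM in ILC2s with eosinophils, against 64.1, 59.6 and 62.3 CPM in ILC2s alone. Again the groups were far apart and close within themselves, and the log2 fold change was 2.67 ± 0.045 (edgeR adjusted p = 4.9e-28).

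Il7r, which binds IL-7 and, with another chain, TSLP, had 215, 237 and 265 CPM in ILC2s with eosinophils, against 1404, 1400 and 1384 CPM in ILC2s alone. All 3 cocultured libraries were low, with more spread among them than among the libraries alone. The log2 fold change was -2.55 ± 0.051 (edgeR adjusted p = 2.4e-26). Crlf2, the TSLP receptor chain that pairs with Il7r, averaged 80.2 ± 1.31 CPM in ILC2s with eosinophils and 78.7 ± 7.10 CPM in ILC2s alone (SD, n = 3 each) and was not called (log2 fold change 0.02 ± 0.052, edgeR adjusted p = 0.77). Its sign turned when libraries were scaled by their totals alone (-0.14, adjusted p = 0.0176, up to 0.929 in the other settings).

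Il2rg, the common gamma chain itself, had 259, 261 and 261 CPM in ILC2s with eosinophils, against 263, 271 and 272 CPM in ILC2s alone. The groups differed by a log2 fold change of only -0.05 ± 0.037 (edgeR adjusted p = 0.2), although no cocultured library reached the lowest of the libraries alone. With library totals in place of TMM the value was -0.21 and passed the test (adjusted p = 9.86e-06, against up to 0.542 in the other settings). That scaling moved the median of all genes by -0.16, so that Il2rg relative to the median gene stood about where it did before.

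The receptors for IL-9, IL-15 and IL-21 moved in different directions. Il9r, the IL-9 receptor chain, had 189, 206 and 206 CPM in ILC2s with eosinophils, against 232, 250 and 252 CPM in ILC2s alone. The groups did not overlap and the fall was small, at -0.30 ± 0.042 (edgeR adjusted p = 3.6e-07). Il15ra, the chain that captures IL-15, had 15.9, 17.4 and 17.2 CPM in ILC2s with eosinophils, against 34.3, 34.0 and 33.9 CPM in ILC2s alone. The 2 groups were well apart, with a log2 fold change of -1.03 ± 0.073 (edgeR adjusted p = 2.6e-13). Il21r, the IL-21 receptor chain, was weakly expressed and went up, with 15.4, 16.0 and 14.6 CPM in ILC2s with eosinophils, against 6.82, 6.36 and 7.09 CPM in ILC2s alone. The log2 fold change was 1.17 ± 0.11 (edgeR adjusted p = 5.1e-11). The neighbours Il2ra and Il15ra, which both contribute alpha chains to receptors with Il2rb, thus moved in opposite directions in ILC2s.

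Il4ra, the alpha chain of the receptors for IL-4 and IL-13, was higher in cocultured ILC2s. It had 173, 175 and 174 CPM in ILC2s with eosinophils, against 94.6, 88.9 and 96.9 CPM in ILC2s alone. The log2 fold change was 0.89 ± 0.041 (edgeR adjusted p = 1e-17), and the 2 groups did not overlap. Il13ra1, the other chain of the IL-13 receptor, had 0, 2 and 1 counts in ILC2s with eosinophils and 0 counts in every library of ILC2s alone. It was too low to test, and Il13ra2, the decoy receptor for IL-13, had 0 counts in ILC2s with eosinophils and 1 count in ILC2s alone.

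Il2 transcripts were scarce in ILC2s and scarcer in coculture. The 3 libraries of ILC2s with eosinophils held 2, 1 and 2 counts (0.0851, 0.0444 and 0.0821 CPM), against 12, 17 and 25 counts in ILC2s alone (0.576, 0.766 and 0.873 CPM). Every cocultured library was at or under the level of 3 counts and every library alone was above it. The fall was 9.92-fold in the fit (log2 fold change -3.31 ± 0.57, edgeR adjusted p = 8.5e-06). T cells are a known source of IL-2, and the list of 7 T cell markers summed to 6.45 to 6.87 CPM in ILC2s with eosinophils and 7.94 to 9.06 CPM in ILC2s alone. Of that list Cd3e made up most, at 4.11 and 5.46 CPM, and Cd8a was at 0 in ILC2s alone. The part of T cells in the Il2 counts was not tested. The list of 8 basophil and mast cell genes was lower in coculture too, at 84.4 to 104.5 CPM in ILC2s with eosinophils and 222 to 240 CPM in ILC2s alone. Most of it was Kit (61.9 and 167 CPM) and Cd200r3 (29.8 and 62.1 CPM), while Mcpt8 was at 0.362 and 0.0945 CPM and Fcer1a and Ms4a2 had 0 counts in ILC2s alone. The part of such cells in the ILC2 results was not tested.

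**Figure D1:**
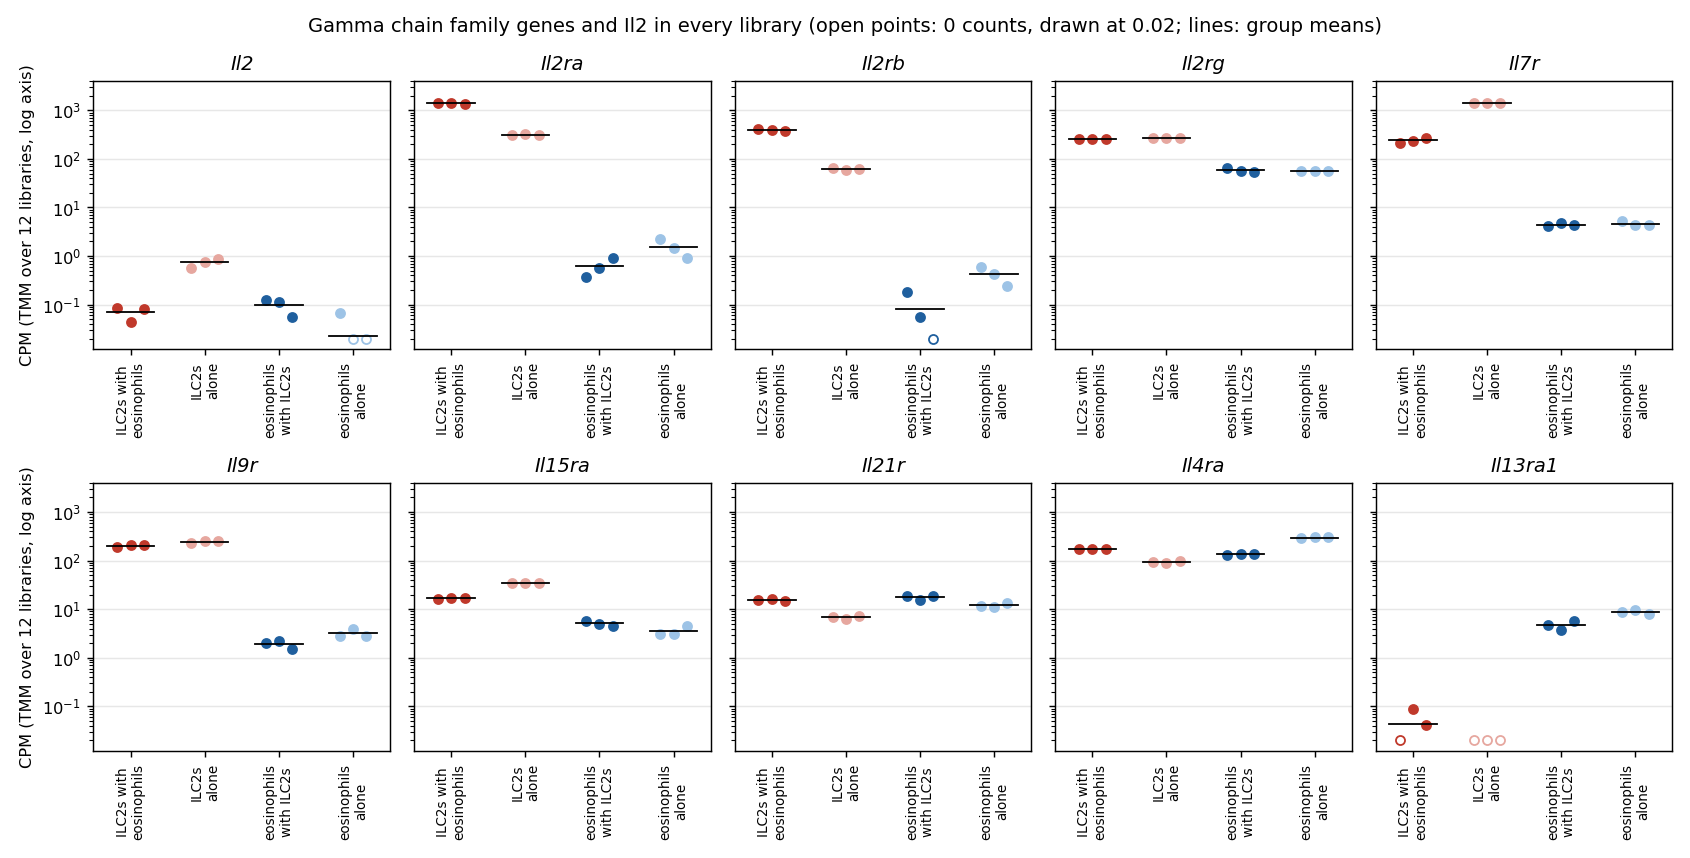
CPM of each of the 10 genes in every library on a log axis, with 1 point per library, a line at the group mean, and libraries with 0 counts drawn as open points at the bottom of the axis. Il2ra and Il2rb stand higher and Il7r lower in ILC2s with eosinophils than in ILC2s alone, Il2rg is level at 259 to 272 CPM in the 6 ILC2 libraries, and Il4ra moves in opposite directions in the 2 cell types.

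In eosinophils coculture moved fewer of the genes. Il4ra and Il13ra1, the chains of the IL-4 and IL-13 receptor, both fell and Il21r rose, and Il2ra, at 1 to 2 CPM or less, was called lower on few counts. Of the 8 genes tested, 1 was higher and 3 were lower, where 11.4% of all 13109 genes tested were higher and 13.5% lower. By library totals, 2114 genes were higher and 1532 lower in place of 1493 and 1771, and without replicate 3 of eosinophils with ILC2s 948 were higher and 1337 lower. The median log2 fold change was -0.43 over the 8 genes and 0.004 over all genes tested.

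Il4ra had 133, 134 and 136 CPM in eosinophils with ILC2s, against 287, 307 and 299 CPM in eosinophils alone. The 2 groups were far apart, with a log2 fold change of -1.18 ± 0.056 (edgeR adjusted p = 4e-09). Il13ra1 had 4.64, 3.77 and 5.63 CPM in eosinophils with ILC2s, against 8.96, 9.80 and 8.05 CPM in eosinophils alone, a log2 fold change of -0.96 ± 0.18 (edgeR adjusted p = 0.0013). Both chains of the receptor through which IL-13 acts were therefore lower in each cocultured eosinophil library than in any eosinophil library alone. Il21r had 18.7, 15.8 and 18.6 CPM in eosinophils with ILC2s, against 11.6, 11.2 and 13.5 CPM in eosinophils alone. That is a log2 fold change of 0.51 ± 0.12 (edgeR adjusted p = 0.0059).

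Summed marker lists of other granulocytes, and of monocytes and macrophages, differed between the eosinophil groups too, although not all genes of a list moved together. The list of 8 basophil and mast cell genes summed to 109.6 to 118 CPM in eosinophils with ILC2s and to 232.5 to 256 CPM in eosinophils alone, of which Gata2 made up most (80.3 and 154 CPM), while Mcpt8 stood at 0.0808 and 0.253 CPM. The list of 8 neutrophil genes summed to 604.5 to 685 CPM in eosinophils with ILC2s and to 94.98 to 123 CPM in eosinophils alone. Nearly all of that was Retnlg (642 and 96.0 CPM), and Camp had 0 counts in both groups. Mmp8 (1.91 and 0.404 CPM) and Ngp (4.06 and 3.70 CPM) were higher with ILC2s too. S100a9 (2.04 and 5.1 CPM), S100a8 (1.12 and 3.78 CPM), Ly6g (1.47 and 2.26 CPM) and Ltf (0.52 and 0.90 CPM) were lower. In the basophil and mast cell list Ms4a2 went the other way, at 3.48 and 2.83 CPM. The part of these cells in the changes of Il4ra, Il13ra1 and Il21r was not tested.

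The common chain and the IL-7 receptor chain showed no called difference in eosinophils. Il2rg had 66.1, 56.0 and 52.5 CPM in eosinophils with ILC2s, against 57.2, 55.4 and 56.7 CPM in eosinophils alone, and the groups overlapped (0.01 ± 0.084, edgeR adjusted p = 0.93). Il7r had 4.14, 4.78 and 4.32 CPM in eosinophils with ILC2s, against 5.35, 4.31 and 4.27 CPM in eosinophils alone, and the groups overlapped too (-0.10 ± 0.19, edgeR adjusted p = 0.76). Il9r and Il15ra did not pass the test either. Il9r had 1.98, 2.19 and 1.54 CPM in eosinophils with ILC2s, against 2.81, 3.82 and 2.85 CPM in eosinophils alone (-0.76 ± 0.27, edgeR adjusted p = 0.054). Il15ra had 5.81, 5.06 and 4.44 CPM in eosinophils with ILC2s, against 3.14, 3.02 and 4.46 CPM in eosinophils alone (0.50 ± 0.21, edgeR adjusted p = 0.12). In a fit of all 12 libraries both passed, Il9r as lower (adjusted p = 0.00326, up to 0.186 in the other settings) and Il15ra as higher (0.0177, up to 0.302). Il15ra also passed without replicate 3 of eosinophils alone (0.0402).

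Counts of the IL-2 receptor alpha and beta chains in eosinophils were small. Whether they stood above what a trace of ILC2 RNA in those libraries would give depended on how that trace was estimated. Il2ra had 6, 10 and 16 counts in eosinophils with ILC2s (0.371, 0.563 and 0.910 CPM), against 33, 24 and 15 counts in eosinophils alone (2.21, 1.48 and 0.929 CPM). The highest cocultured library stood just below the lowest library alone, and the log2 fold change was -1.33 ± 0.45 (edgeR adjusted p = 0.046). The call was lost in 6 of 11 other settings, among them those without replicate 1 (adjusted p = 0.166) or 2 (0.131) of eosinophils with ILC2s and without replicate 1 (0.222) or 2 (0.0563) of eosinophils alone. Over the 11 settings the adjusted p ran from 0.00225 to 0.222. Il2rb had 3, 1 and 0 counts in eosinophils with ILC2s, against 9, 7 and 4 counts in eosinophils alone, and was not tested.

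The share of ILC2 RNA was estimated from 8 ILC2 markers that eosinophils lack, among them Gata3, Icos, Thy1 and Rora, as the median of their level relative to ILC2s with eosinophils. It was 0.118%, 0.0843% and 0.0589% in eosinophils with ILC2s and 0.230%, 0.135% and 0.121% in eosinophils alone. All 3 shares in coculture were below all 3 in eosinophils alone, at the smallest p that 3 against 3 allows (exact two-sided permutation test, p = 0.1). Eosinophils alone had no ILC2s in their final culture, and the origin of the ILC2 marker RNA in them was not tested. With the mean over markers in place of the median the shares were 0.174% ± 0.0542 in eosinophils with ILC2s and 0.250% ± 0.0574 in eosinophils alone (SD, n = 3 each; exact two-sided permutation test, p = 0.3). At these shares ILC2s would contribute 1.36 CPM of Il2ra by library total to eosinophils with ILC2s, where 0.524 CPM was measured, and 2.52 CPM to eosinophils alone, where 1.29 CPM was measured. For Il2rb the shares give 0.386 CPM in eosinophils with ILC2s and 0.718 CPM in eosinophils alone, above the 0.0686 and 0.359 CPM measured. These values depend on which ILC2s stand for the source. With ILC2s alone as the source, an alternative chosen after the data were seen, the median share in eosinophils alone was 0.126% and gives 0.492 CPM of Il2ra and 0.0972 CPM of Il2rb, below the levels measured there. In eosinophils with ILC2s that source gives 0.275 CPM of Il2ra and 0.0544 CPM of Il2rb, also below those measured, although the mean over markers gives 0.0961 CPM of Il2rb, above its level. Whether eosinophils express either chain cannot be told apart from the ILC2 trace at this depth.

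Il7r in eosinophils depended on the source as well. In eosinophils with ILC2s it was at 3.77 CPM, against 0.232 CPM from the share of cocultured ILC2s and 1.23 CPM from that of ILC2s alone. In eosinophils alone it was at 3.89 CPM, against 0.432 CPM from the first source and 2.19 CPM, or 3.13 CPM by the mean over markers, from the second. Il9r stood further above the trace, at 1.62 CPM in eosinophils with ILC2s and 2.65 CPM in eosinophils alone, against at most 0.388 and 0.558 CPM from either source. In ILC2s with eosinophils the share of eosinophil RNA was 0.0282% ± 0.00538 and in ILC2s alone 0.0309% ± 0.0131 (SD, n = 3 each; exact two-sided permutation test, p = 0.8), which in coculture gives at most 0.0323 CPM for any of the 10 genes.

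Il2 had 2, 2 and 1 counts in eosinophils with ILC2s and 1, 0 and 0 counts in eosinophils alone. The ratio of the summed counts, 5 against 1, was 4.59 with a 95% counting interval of 0.514 to 217, so no difference was detectable at this depth.

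**Figure D2:**
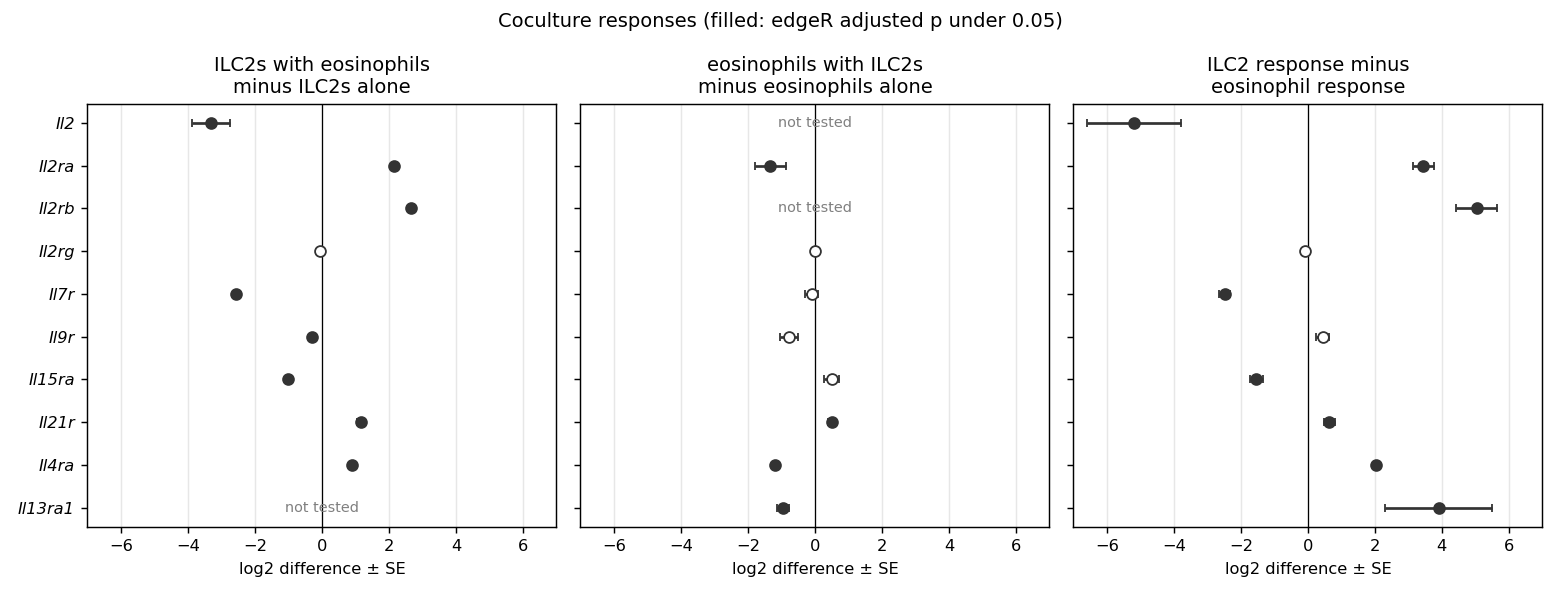
Log2 fold change of each tested gene on coculture, ILC2s with eosinophils over ILC2s alone and eosinophils with ILC2s over eosinophils alone, with the difference of the 2 responses in the last panel. Bars are 1 SE from edgeR and filled points passed the test. Il2ra (2.15 in ILC2s, -1.33 in eosinophils) and Il4ra (0.89 and -1.18) lie on opposite sides of 0, and Il2rg lies near 0 in both cell types.

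The responses of the 2 cell types were compared in a model of all 12 libraries, as the ILC2 response minus the eosinophil response. It was higher in ILC2s for 5 and lower for 3 of the 10 genes, where 26.8% of all 15745 genes tested were higher and 24.8% lower. By library totals, 3357 genes were higher and 5112 lower in place of 4215 and 3899, with a shift of the median of all genes of -0.19. Il4ra had the most precise difference, 2.04 ± 0.072 on the log2 scale (edgeR adjusted p = 5.6e-17), from a rise in ILC2s and a fall in eosinophils that were each called. Il7r differed by -2.48 ± 0.16 (edgeR adjusted p = 2.9e-12) and Il15ra by -1.54 ± 0.19 (edgeR adjusted p = 2.5e-07), both lower in the ILC2 response. Il21r rose in both cell types and by more in ILC2s, by 0.63 ± 0.16 (edgeR adjusted p = 0.0016).

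Other differences rest on few counts in 1 cell type. Those of Il2ra (3.44 ± 0.31, edgeR adjusted p = 1.7e-09) and Il2rb (5.03 ± 0.62, edgeR adjusted p = 2.8e-07) contain eosinophil levels that could not be told apart from the ILC2 trace. That of Il2rb ran from 4.47 to 6.31 over 16 other settings, both ends from leaving out a library of eosinophils with ILC2s (replicate 3 and replicate 1). That of Il2 (-5.20 ± 1.4, edgeR adjusted p = 0.0024) contains 5 and 1 counts in the eosinophil groups and ran from -7.37, without replicate 1 of eosinophils alone, to -4.72, without replicate 2. That of Il13ra1 (3.90, edgeR adjusted p = 0.047) contains 3 and 0 counts in the ILC2 groups, gives no measure of size, and was lost in 12 of 16 other settings (adjusted p 0.0235 to 0.201). Those took in leaving out any library except replicate 1 of ILC2s with eosinophils and replicate 3 of each eosinophil group. Il2rg (-0.09 ± 0.089, edgeR adjusted p = 0.44) and Il9r (0.44 ± 0.19, edgeR adjusted p = 0.055) did not pass the test, although Il9r passed without replicate 1 of ILC2s with eosinophils, replicate 2 of eosinophils with ILC2s, or replicate 1 or 3 of eosinophils alone (adjusted p 0.0355 to 0.294 over 16 settings). Il2rg passed by library totals (-0.28, adjusted p = 0.0104, up to 0.983 in the other settings), a scaling that moved the median gene the same way.

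Between the cell types, ILC2s held more of most receptors, and eosinophils held more Il13ra1 and, in cells cultured alone, more Il4ra and Il21r. In cells cultured alone 7 genes were higher and 3 lower in ILC2s than in eosinophils, where 40.8% of all 14525 genes tested were higher and 39.9% lower. By library totals, 8587 genes were higher and 3664 lower in place of 5923 and 5796, and the median of all genes moved by 0.57. In cocultured cells 7 of 9 tested genes were higher and 2 lower, where 43.6% of all 14634 genes tested were higher and 40.5% lower. By library totals, 8177 genes were higher and 4247 lower in place of 6374 and 5922, with a shift of 0.40. Cell type, tissue of origin and the earlier cytokines cannot be told apart in these comparisons.

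Il7r was 303-fold higher in ILC2s alone than in eosinophils alone (log2 fold change 8.24 ± 0.09, edgeR adjusted p = 2.8e-18) and 53.7-fold higher in cocultured ILC2s than in cocultured eosinophils (5.75 ± 0.091, edgeR adjusted p = 8.4e-30). Il9r was 77.5-fold higher alone and 104-fold higher in coculture. Il15ra was 9.64-fold and 3.28-fold higher in ILC2s. The common chain Il2rg was 4.79-fold higher in ILC2s alone than in eosinophils alone (2.26 ± 0.058, edgeR adjusted p = 2e-14) and 4.45-fold higher in cocultured ILC2s than in cocultured eosinophils. For Il2ra and Il2rb the eosinophil counts were few and could not be told apart from the ILC2 trace. Their folds are therefore given as ratios of summed counts with a 95% counting interval. In cells alone Il2ra held 22495 counts in ILC2s and 72 in eosinophils, a ratio of 206 (164 to 264), and Il2rb held 4439 and 20, a ratio of 147 (94.8 to 240). In coculture Il2ra held 98104 counts in ILC2s and 32 in eosinophils, a ratio of 2244 (1590 to 3281), and Il2rb held 27932 and 4, a ratio of 5112 (1996 to 18760). The fitted log2 fold change of Il2rb in coculture was 12.20 and ran from 11.63, without replicate 3 of eosinophils with ILC2s, to 13.49, without replicate 1.

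Il4ra changed sides. It was 3.17-fold lower in ILC2s alone than in eosinophils alone (-1.66 ± 0.06, edgeR adjusted p = 1.2e-12) and 1.29-fold higher in ILC2s with eosinophils than in eosinophils with ILC2s (0.37 ± 0.047, edgeR adjusted p = 4e-08). Both calls held in 11 of 11 other settings. Il21r was lower in ILC2s alone than in eosinophils alone (-0.83 ± 0.13, edgeR adjusted p = 3.2e-05), a call lost by library totals (-0.26, adjusted p = 0.0724, from 7.88e-07 in the other settings). Its difference in coculture (-0.21 ± 0.1, edgeR adjusted p = 0.049) was lost in 10 of 11 other settings, with adjusted p of 0.00955 to 0.179, among them leaving out any library but replicate 2 of eosinophils with ILC2s, and turned to 0.18 by library totals.

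Il13ra1 was confined to eosinophil libraries but for 3 counts. ILC2s alone held 0 counts, against 423 in eosinophils alone, and, with 3 counts taken as the floor for the whole group, it was at least 213-fold lower in ILC2s. In coculture ILC2s held 3 counts, against 241 in eosinophils, a ratio of 110 in favour of eosinophils with a 95% counting interval of 37.1 to 536. Il2 held 54 counts in ILC2s alone, against 1 in eosinophils alone, a ratio of 35.7 with a counting interval of 6.14 to 1435. Such intervals cover counting error only.

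Set side by side per kb of exon, the order of the receptor chains within ILC2s was rearranged by coculture. In ILC2s with eosinophils Il2ra led at 244 ± 9.40 CPM per kb, followed by Il2rg at 109 ± 0.460, Il2rb at 92.6 ± 4.63, Il7r at 51.3 ± 5.37, Il9r at 40.5 ± 1.98 and Il4ra at 29.0 ± 0.231 (SD, n = 3). Il21r at 4.61, Il15ra at 3.78, Il2 at 0.0617 and Il13ra1 at 0.0117 CPM per kb came last, and no 2 neighbours in this order overlapped. In ILC2s alone Il7r led at 299 ± 2.22 CPM per kb, before Il2rg at 113 ± 2.04, Il2ra at 54.9 ± 1.36 and Il9r at 49.5 ± 2.16. Il4ra at 15.6 and Il2rb at 14.5 CPM per kb overlapped, and Il15ra at 7.66, Il21r at 2.03 and Il2 at 0.646 followed, with Il13ra1 at 0. Il2rb therefore stood behind the common chain in both groups, and much closer to it in coculture.

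Ratios taken within each library, which do not depend on the scaling between libraries, gave the same account. Il2ra per kb was 4.81 ± 0.683 times Il7r in ILC2s with eosinophils and 0.183 ± 0.00549 times in ILC2s alone (SD, n = 3 each). Il2rb was 0.849 ± 0.0458 times Il2rg in ILC2s with eosinophils and 0.1285 ± 0.00660 times in ILC2s alone. Il7r was 0.470 ± 0.0474 times Il2rg in ILC2s with eosinophils and 2.66 ± 0.0652 times in ILC2s alone. In each of these ratios the 3 libraries of 1 group lay wholly apart from the 3 of the other. The chain outnumbering the common chain was thus Il2ra in ILC2s with eosinophils and Il7r in ILC2s alone, at the level of RNA.

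In eosinophils the order was led by Il2rg and Il4ra. In eosinophils with ILC2s Il2rg at 24.4 ± 2.97 and Il4ra at 22.3 ± 0.267 CPM per kb overlapped, and in eosinophils alone Il4ra stood clear at 49.6 ± 1.64, ahead of Il2rg at 23.6 ± 0.382. The Il4ra to Il2rg ratio within a library was 0.926 ± 0.118 in eosinophils with ILC2s and 2.10 ± 0.102 in eosinophils alone. Il21r came next in both groups, at 5.32 ± 0.502 and 3.65 ± 0.366 CPM per kb. Il13ra1, Il15ra and Il7r overlapped from neighbour to neighbour in eosinophils with ILC2s, at 1.26, 1.15 and 0.947 CPM per kb. In eosinophils alone Il13ra1 was at 2.41 CPM per kb, above Il7r, Il15ra and Il9r at 0.996, 0.796 and 0.639, of which neighbours overlapped. Il2ra, Il2rb and Il2 came last in both groups.

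**Figure D3:**
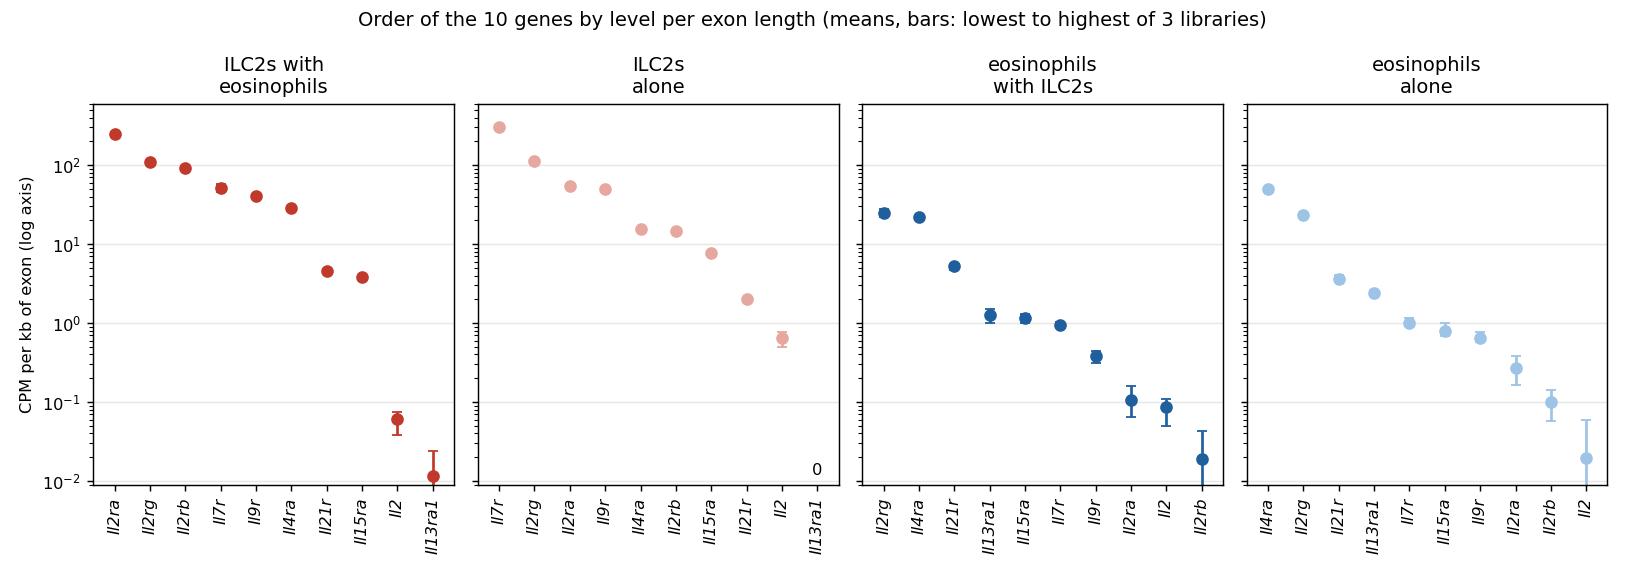
Mean level of the 10 genes in CPM per kb of exon on a log axis, ordered within each of the 4 groups, with bars from the lowest to the highest of 3 libraries. Il2ra is first in ILC2s with eosinophils (244) and Il7r first in ILC2s alone (299), while Il2rg and Il4ra lead in both eosinophil groups.

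The 5 lists of 47 genes that act before or after these receptors were followed next. Of the 7 ligands, 4 could be tested in ILC2s. Il13, which signals through Il4ra with Il13ra1, averaged 997 ± 34.5 CPM in ILC2s with eosinophils and 31.6 ± 0.744 CPM in ILC2s alone (log2 fold change 4.97 ± 0.047, edgeR adjusted p = 1.7e-33). Il15 fell to 4 counts in ILC2s with eosinophils, against 134 in ILC2s alone (-4.94 ± 0.53, edgeR adjusted p = 2.1e-09). Il4 and Il7 were not called. Il9 had 7 counts in ILC2s with eosinophils and 0 in ILC2s alone, and Il21 had 4 and 0, too few to test. In eosinophils 2 of 3 tested ligands were lower and none higher, where 13.5% of all genes were lower and 11.4% higher. Il13 averaged 26.4 ± 4.65 CPM in eosinophils with ILC2s and 144 ± 10.4 CPM in eosinophils alone (-2.48 ± 0.11, edgeR adjusted p = 1.2e-09), and Il4 changed by -0.41 ± 0.09 (edgeR adjusted p = 0.0045).

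Among the 9 kinases and STATs, 4 rose and 4 fell in ILC2s, shares near those of all genes (36.8% higher and 35.6% lower). Jak3, the kinase bound to the common chain, averaged 858 ± 15.8 CPM in ILC2s with eosinophils and 372.5 ± 1.72 CPM in ILC2s alone (1.20 ± 0.037, edgeR adjusted p = 7.6e-22), although the chain itself was not called. Stat5a (0.88 ± 0.056), Stat3 (0.81 ± 0.038) and Stat5b (0.63 ± 0.041) were higher, and Stat6, which transmits IL-4 and IL-13 signals, was lower (-0.53 ± 0.04, edgeR adjusted p = 9.8e-13). Tyk2 (-0.37 ± 0.038) and Jak1 (-0.31 ± 0.037) were lower too. In eosinophils 3 of the 9 were higher and 2 lower, where 11.4% of all genes were higher and 13.5% lower. Jak3 was lower there, at 34.4 ± 0.746 CPM in eosinophils with ILC2s and 50.2 ± 3.47 CPM in eosinophils alone (-0.57 ± 0.075, edgeR adjusted p = 7.2e-05), as was Jak2 (-0.35 ± 0.059). Jak1 (0.29 ± 0.061) and Stat5a (0.29 ± 0.079) were higher, and the call of Stat5a was lost in 3 of 11 other settings. Without replicate 1 of eosinophils alone, or replicate 2 or 3 of eosinophils with ILC2s, its adjusted p was 0.0751 to 0.0917, within 0.00164 to 0.0917 over the 11.

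The list of 16 feedback and STAT5 target genes moved in opposite directions in the 2 cell types. In ILC2s 11 were higher and 3 lower, where 36.8% of all genes were higher and 35.6% lower, and the median log2 fold change was 1.25 where that of all genes was 0.003. In eosinophils 12 of 14 tested were lower and none higher, where 13.5% of all genes were lower and 11.4% higher, with a median of -1.48 where that of all genes was 0.004. The response was higher in ILC2s for 13 of 16 and lower for none (median difference 2.12), where 26.8% of all genes were higher and 24.8% lower. Socs3, an inhibitor of cytokine signalling, averaged 120 ± 11.5 CPM in ILC2s with eosinophils and 2.95 ± 0.256 CPM in ILC2s alone (5.34 ± 0.088, edgeR adjusted p = 3.7e-28). It averaged 46.8 ± 3.01 CPM in eosinophils with ILC2s and 140 ± 1.24 CPM in eosinophils alone (-1.61 ± 0.066, edgeR adjusted p = 8.8e-10). Osm, a STAT5-induced cytokine (2.45 ± 0.048 in ILC2s and -2.02 ± 0.081 in eosinophils), and Pim2, a survival kinase (2.06 ± 0.052 and -1.89 ± 0.057), did likewise. So did Cish, the classical STAT5 target, with 278 ± 4.26 CPM in ILC2s with eosinophils and 101 ± 4.50 CPM in ILC2s alone, and 312 ± 12.7 CPM in eosinophils with ILC2s and 912.5 ± 12.3 CPM in eosinophils alone.

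Exceptions within that list included Socs2, the survival gene Bcl2 and the cytokine Lta. Socs2 was not called in ILC2s (-0.01 ± 0.053, edgeR adjusted p = 0.86) or in eosinophils (0.07 ± 0.053, edgeR adjusted p = 0.39). By library totals it was called lower in ILC2s (-0.17, adjusted p = 0.0053, up to 0.979 in the other settings). Bcl2 was lower in both cell types, at -0.49 ± 0.038 in ILC2s (edgeR adjusted p = 1.6e-12) and -1.44 ± 0.086 in eosinophils (edgeR adjusted p = 3.3e-08). Lta averaged 2.39 ± 0.221 CPM in ILC2s with eosinophils and 14.5 ± 1.19 CPM in ILC2s alone (-2.61 ± 0.14, edgeR adjusted p = 2e-16). Mcl1 was slightly lower in ILC2s (-0.20 ± 0.037) and in eosinophils (-0.24 ± 0.049). Ccnd2, a cell cycle cyclin, had the largest fall of the 14 genes of the list tested in eosinophils (-2.07 ± 0.12, edgeR adjusted p = 3e-08) and was not called in ILC2s (-0.04 ± 0.038, edgeR adjusted p = 0.36). Lta was not tested there: it had 2 counts in eosinophils with ILC2s and 12 in eosinophils alone, a ratio of 6.53 in favour of eosinophils alone with a 95% counting interval of 1.45 to 60.1. Cells were compared 24 h after cytokine withdrawal, and the earlier cytokines differed between the cell types but not between the groups of 1 cell type.

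Regulators known to act on Il7r or Il2 transcription, mostly from work in T cells, were 8 of 13 higher and 5 lower in ILC2s, where 36.8% of all genes were higher and 35.6% lower. Prdm1, which encodes the repressor Blimp-1, averaged 104 ± 5.04 CPM in ILC2s with eosinophils and 7.94 ± 0.404 CPM in ILC2s alone (3.70 ± 0.066, edgeR adjusted p = 2.2e-27). Fos (3.30 ± 0.21) and Ikzf3 (1.53 ± 0.05) were higher. Ets1 was lower, at 340 ± 6.30 CPM in ILC2s with eosinophils and 723 ± 17.1 CPM in ILC2s alone (-1.10 ± 0.037, edgeR adjusted p = 9e-21), as were Ikzf1 (-0.41 ± 0.037) and Nfatc1 (-0.36 ± 0.055). Gfi1, a repressor of Il7r in lymphocytes, was higher in ILC2s (0.61 ± 0.047, edgeR adjusted p = 1.6e-12), and so was Foxo1, an activator of Il7r in T cells (0.45 ± 0.052, edgeR adjusted p = 1.1e-08). In eosinophils 5 of the 13 were higher and 3 lower, where 11.4% of all genes were higher and 13.5% lower: Fos (-2.48 ± 0.21), Nfatc2 (-0.79 ± 0.074) and Runx1 (-0.77 ± 0.071) fell, and Rel (0.53 ± 0.075) and Ets1 (0.52 ± 0.088) rose. Gfi1 was called higher there on 177 and 79 counts (1.01 ± 0.29, edgeR adjusted p = 0.022), a call lost in 5 of 11 other settings, those without any 1 of the libraries with ILC2s or without replicate 1 or 2 of eosinophils alone, with adjusted p of 0.00042 to 0.0904 over the 11.

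**Figure D4:**
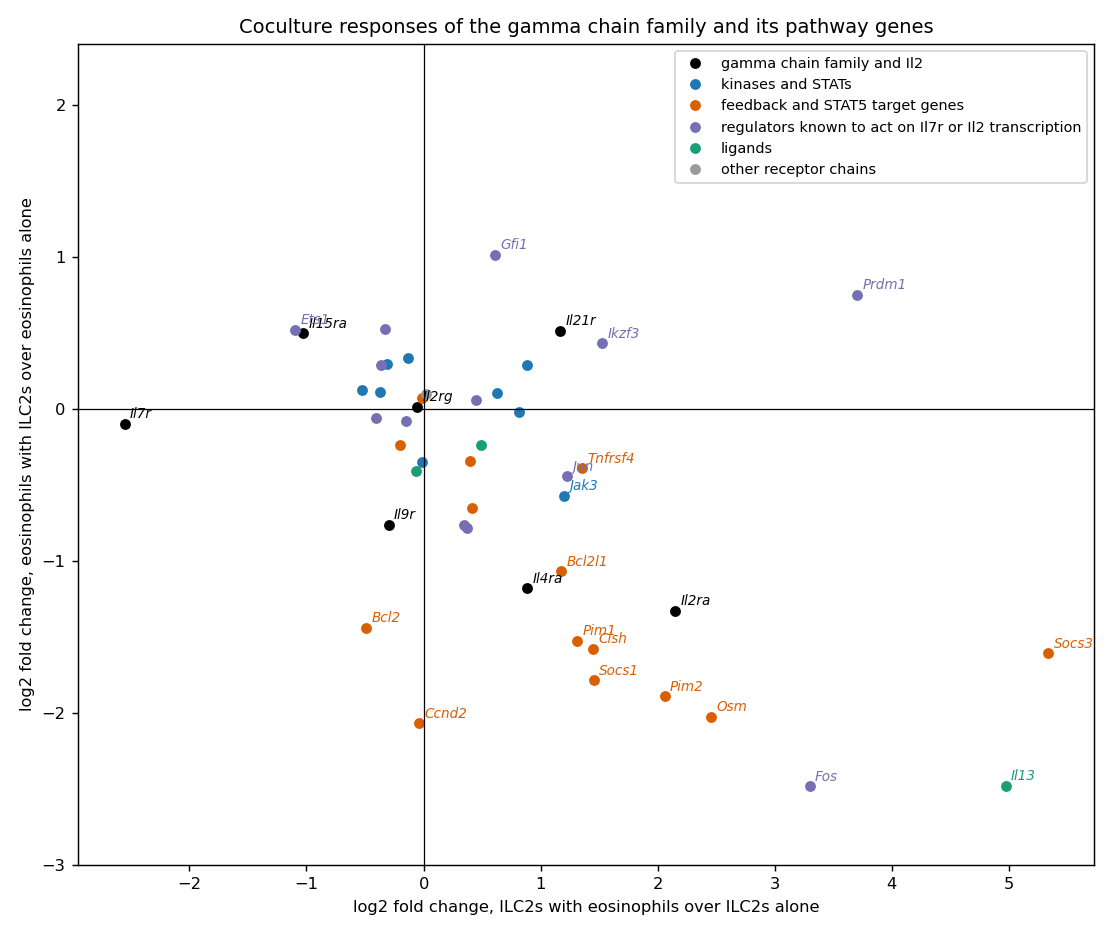
Log2 fold change in ILC2s (x axis) against that in eosinophils (y axis) for each gene of the family and of the 5 pathway lists that was tested in both coculture comparisons, coloured by list. Socs3, Osm, Pim2, Cish and Il13 lie at lower right, higher in ILC2s and lower in eosinophils, with Il2ra and Il4ra, and Il7r lies far left near 0 on the y axis.

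Between the cell types the pathway lists split without a common direction, apart from the feedback genes in cells cultured alone. There 4 of 16 were higher and 11 lower in ILC2s than in eosinophils, where 40.8% of all genes were higher and 39.9% lower. The median log2 fold change was -2.49, against 0.03 over all genes. Lowest were Socs3 (-5.55 ± 0.085), Pim2 (-4.52 ± 0.072) and Socs1 (-4.28 ± 0.089). On the high side stood Lta (5.81 ± 0.25), Myc (5.00 ± 0.2) and Ccnd2 (3.31 ± 0.069). In cocultured cells 8 were higher and 8 lower (median 0.23, against 0.05), where 43.6% of all genes were higher and 40.5% lower. Myc (7.94 ± 0.15), Lta (5.73 ± 0.59, on 2 counts in eosinophils) and Ccnd2 (5.30 ± 0.074) were highest and Ptpn6, a phosphatase (-2.99 ± 0.049), lowest. Of the 9 kinases and STATs, 4 were higher and 5 lower in cells alone, and 4 and 4 in cocultured cells, near the shares of all genes. Jak3 was 7.46-fold higher in ILC2s alone than in eosinophils alone and 24.8-fold higher in ILC2s with eosinophils than in eosinophils with ILC2s.

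The regulators were 7 higher and 5 lower of 13 in ILC2s alone, where 40.8% of all genes were higher and 39.9% lower, and 8 and 5 in cocultured ILC2s, where 43.6% were higher and 40.5% lower. Gfi1 was 47.2-fold and 34.9-fold higher in ILC2s, Ets1 13.9-fold and 4.43-fold, and Prdm1 14.4-fold and 108-fold. Lowest in ILC2s alone were Fos (-3.16 ± 0.24), Runx1 (-1.79 ± 0.07) and Ikzf3 (-1.45 ± 0.093), and in cocultured ILC2s Rel (-1.91 ± 0.084), Nfatc1 (-1.68 ± 0.059) and Runx1 (-0.71 ± 0.051). Fos was higher in cocultured ILC2s than in cocultured eosinophils (2.59 ± 0.2). Of the ligands, Il4 was 13.5-fold lower in ILC2s alone and 10.9-fold lower in cocultured ILC2s. Crlf2, the TSLP receptor chain, was 2.75-fold and 2.98-fold lower. Il13 was 4.53-fold lower in ILC2s alone than in eosinophils alone and 37.7-fold higher in ILC2s with eosinophils than in eosinophils with ILC2s, a change of sides like that of its receptor chain Il4ra. Il15 was higher in ILC2s alone (2.30 ± 0.4, edgeR adjusted p = 8.8e-05) and not tested in coculture.

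The genes most like a given receptor were sought by the smallest root mean square difference of centred log2(CPM + 0.5) over the 12 libraries, among 15745 genes. For Il2rb they were Tnfsf10, Dkk3 and Cysltr1, with differences of 0.454, 0.472 and 0.509 log2 units. For Il2ra they were Ly6a (0.483), Tnfsf10 (0.494) and Il2rb (0.615). For Il7r they were Vipr2 (0.361), Eya2 (0.386) and Mndal (0.438). Vipr2, a neuropeptide receptor, averaged 52.3 CPM in ILC2s with eosinophils and 220 CPM in ILC2s alone, with at most 0.173 CPM in either eosinophil group. For Il4ra they were Ptpn9 (0.136), Sinhcaf (0.152) and Jmjd6 (0.168), all with lower means in eosinophils with ILC2s than in eosinophils alone and higher means in ILC2s with eosinophils than in ILC2s alone. The nearest to Il2 were Speer4e, Erich2 and Zfp329 (0.116 to 0.123), but at levels this low the added 0.5 sets most of the measure. All of these likenesses share the same libraries and the same contrast of cell types.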

How the data were processed

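RNA was measured by sequencing. The authors deposited unnormalized counts of reads for each gene. Per the submitters' processing notes the tools were STAR 2.5.2b, Subread 1.5.2 with featureCounts, Trimmomatic 0.36 and bcl2fastq 2.17, on build mm10. Strand setting, annotation release and multi-mapping rule were not given in the sources used here. GENCODE M21 gave symbols for 49056 of 49315 genes.

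Each comparison was fitted over all genes in edgeR 4.0.16 (R 4.3.3) by quasi-likelihood after filterByExpr and TMM, with no covariate, and called at a Benjamini-Hochberg adjusted p under 0.05. Standard errors are the log2 fold change divided by the square root of F. Fits were tested on simulated data. Alternatives were library totals, DESeq2 1.42.0, no filter, all 12 libraries in one fit, the replicate number as a block and leaving out each library. Levels came from TMM over 12 libraries, and marker sums and RNA shares from library totals. Markers for partner RNA needed 10 CPM or more in the partner and 1% of that or less in cells cultured alone. ILC2s alone as the source of that RNA, and count ratios of Il2ra and Il2rb, were added after the data were seen. No replicate pair agreed within sampling noise (2.57 to 19.5 chi-square units per degree of freedom). The biological coefficient of variation was 4.71% in ILC2s and 7.92% in eosinophils. Of each pathway list, up to 3 called genes per direction and comparison with the largest log2 fold change were named, and a few others were added with their values in view. Some genes of the lists enter the counts and are not reported here by name. The genes and lists were chosen with earlier results of these data known.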

Additional observations from a re-analysis of the deposited data

Results flagged for a closer look

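The genes below had coculture responses in ILC2s and eosinophils that differed, either for a gene of the receptor family by the test of the difference or for a pathway gene called in opposite directions with a called difference. Differences are log2 values of the ILC2 response minus the eosinophil response, from edgeR over 12 libraries, and no explanation is weighed.

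Among the receptors and Il2 the differences were 5.03 for Il2rb, 3.90 for Il13ra1, 3.44 for Il2ra, 2.04 for Il4ra and 0.63 for Il21r, and -5.20 for Il2, -2.48 for Il7r and -1.54 for Il15ra. Those of Il13ra1 and Il2 rest on 3 and 0 counts in the ILC2 groups and 5 and 1 counts in the eosinophil groups. In eosinophils with ILC2s and eosinophils alone Il2rb held 4 and 20 counts and Il2ra 32 and 72. Those levels could not be told apart from the ILC2 trace.

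Of the signalling genes called in opposite directions, the ligand Il13 differed by 7.43, Jak3 by 1.75 and Jak1 by -0.63. The inhibitors differed by 6.92 for Socs3, 3.22 for Socs1, 3.00 for Cish, 1.05 for Ptpn2 and 0.72 for Ptpn6. Survival and target genes differed by 4.46 for Osm, 3.93 for Pim2, 2.82 for Pim1 and 2.22 for Bcl2l1. Of the transcription factors, Fos differed by 5.76, Nfatc2 by 1.13 and Runx1 by 1.09, and Ets1 by -1.64, Rel by -0.87 and Nfatc1 by -0.67.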

How the results depend on the processing

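In ILC2s the calls of Il2, Il2ra, Il2rb, Il7r, Il9r, Il15ra, Il21r and Il4ra kept their direction and side of the threshold in 11 of 11 alternatives, and the difference of responses did so for Il2, Il2ra, Il2rb, Il7r, Il15ra, Il21r and Il4ra in 16 of 16. Of the summary values, 227 alternatives kept their direction or, for counts, lay within 1.5 times the one reported, and 16 did not.

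In eosinophils the fit of all 12 libraries called 2 of the family higher and 5 lower and 2276 genes higher. Leaving out 1 library gave 1 to 2 of the family higher and 948 to 1604 genes higher. By library totals 3664 genes were lower in ILC2s alone than in eosinophils alone. In cocultured cells 1 of the family was lower by library totals, with DESeq2, with no filter, with all 12 libraries and with the replicate block, and 1 to 2 when a library was left out, since the Il21r call was lost. Signs turned by library totals for Crlf2 in ILC2s (-0.14), for Il21r (0.18), Jak2 (0.022) and Stat5b (0.059) between cocultured cells and for Mcl1 in the difference of responses (-0.17), where the median gene shifted by -0.16, 0.40 and -0.19 under that scaling.

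Same-numbered replicates did not deviate together: correlations were -0.010 to 0.001 in ILC2s, 0.011 to 0.175 in eosinophils, -0.027 to 0.035 between cells alone and -0.010 to 0.025 between cocultured cells, so the numbers were not taken as pairs. With the replicate block 5318 genes were higher in ILC2s and 2029 in eosinophils, Il9r was called in eosinophils (adjusted p = 0.0406) and in the difference of responses (0.0409), and Il13ra1 was lost there (0.0558). Low counts limit Il2 in every group, Il2ra and Il2rb in eosinophils and Il13ra1 in ILC2s.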
